A study of Homo sapiens with 9 samples.

Results

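The genes described here are 9 that act in, or are switched on by, the amino acid branch of the integrated stress response: ATF4, DDIT3, TRIB3, CHAC1, SESN2, DDIT4, ASNS, PSAT1 and PHGDH. They were chosen with earlier results of these data known and were looked up by symbol alone. Each of the 9 was found among the 19969 genes of the deposited count table. The libraries come from HEK293T, a human embryonic kidney cell line that carries the SV40 large T antigen, after removal of ribosomal RNA. Of the 9 libraries, 6 are labelled with an FHY1-M3 construct, 2 each with an ACTB sgRNA, a con sgRNA or a non-target sgRNA, and 3 are labelled input. The series title names editing of m6A, a methyl mark on adenosines of RNA, induced by red or far-red light, and its design text speaks of m6A sequencing. Not given in the labels are the light each culture received, whether an immunoprecipitation preceded the FHY1-M3 libraries, whether the input cells carried the construct, or whether replicates were separate cultures. The con columns of the table read con_ACTB_sgRNA where the sample titles read con_sgRNA, so how the con guide differs from the others is not known. All p-values therefore rest on library-to-library spread, which may be technical.

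ATF4 is a basic leucine zipper transcription factor whose mRNA is translated more efficiently when the initiation factor eIF2 is phosphorylated, as happens when uncharged tRNA activates the kinase GCN2 or when misfolded protein activates PERK. Because that step is translational, the level of ATF4 mRNA need not follow ATF4 activity. ATF4 binds, usually with a C/EBP partner, to C/EBP-ATF response elements and raises genes for amino acid synthesis and uptake. In the same set are genes that feed back on the response or slow growth, among them TRIB3, DDIT3, CHAC1, SESN2 and DDIT4.

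Levels are given in CPM, read counts over the TMM-scaled library size, and fold changes are log2 values from the edgeR quasi-likelihood test, with Benjamini-Hochberg adjustment over all genes tested and a threshold of 0.05. The FHY1-M3 libraries held 2900021 to 3802681 counts and the inputs held 350413 to 643954, so input values are the less precise ones. Mitochondrial mRNAs took 0.563% to 0.639% of the counts in the FHY1-M3 libraries and 7.52% to 7.80% in the inputs, which also had fewer genes detected (13729 to 14491 in the FHY1-M3 libraries, 11657 to 13230 in the inputs). HSPA6, a heat shock gene, had 804 to 1116 counts in each FHY1-M3 library and 0 in each input. These differences move with the FHY1-M3 label, and whether the inputs lacked the construct is not known. Their part in the results below was not tested, with the following exceptions. Leaving mitochondrial mRNAs out of the library size kept every call on the 9 genes. So did thinning the FHY1-M3 libraries to 462026 counts, the mean input total, which was done for the contrast with input only. Of 7 genes typical of HEK293 cells, 0 were called, with a summed level of 1157 to 1308 CPM across the FHY1-M3 libraries and 1148 to 1425 CPM in the inputs. Of 12 markers of other cell types the leukocyte genes PTPRC and CD3E were at 0 in every library, and the summed level of the 12 was 63.9 to 113 CPM across the FHY1-M3 libraries and 41.8 to 130 CPM in the inputs, most of it from CDX2 and COL1A1. A share of counts cannot tell fewer cells of a type from less RNA per cell.

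The element that ATF4 binds was looked for around the start of each gene. RefSeq start windows (GRCh38.p14, 250 bases before to 50 after a start) were matched for all 9 genes, in 14 windows. The core of the C/EBP-ATF response element, TGATGNAA on either strand, was found in windows of 2 of the 9 genes, ASNS and CHAC1, against 4.46% of 27305 genes and 3.62% of 35116 windows in all. The cyclic AMP element TGACGTCA was in windows of 0 of the 9 genes, against 2.25% of the 27305 genes and 1.85% of all windows. It reads the same on both strands, and with 0 matches it shares no letters with the first element here. ASNS and CHAC1 are printed because they hold the element, and SESN2 and DDIT4 because they are the members with the highest fold against input and hold no match in their windows. Capitals mark the element, each line runs 5′ to 3′ on the strand of the gene, and position -1 is the base before the start.
ASNS, chr7:97872409-97872508, minus strand, positions -100 to -1: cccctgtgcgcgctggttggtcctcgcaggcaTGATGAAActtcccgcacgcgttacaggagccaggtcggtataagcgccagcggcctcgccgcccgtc
CHAC1, chr15:40953221-40953320, plus strand, positions -250 to -151: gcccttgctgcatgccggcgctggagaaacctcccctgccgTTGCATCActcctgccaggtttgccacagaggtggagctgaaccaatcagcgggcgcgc
SESN2, chr1:28259418-28259517, plus strand, positions -100 to -1: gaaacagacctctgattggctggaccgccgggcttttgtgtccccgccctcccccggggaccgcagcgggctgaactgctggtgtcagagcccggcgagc
DDIT4, chr10:72273824-72273923, plus strand, positions -100 to -1: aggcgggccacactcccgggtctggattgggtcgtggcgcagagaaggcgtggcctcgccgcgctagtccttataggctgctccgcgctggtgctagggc
In ASNS the element lies at -68 to -61 on the strand of the gene, and in CHAC1 at -209 to -202 on the opposite strand. ASNS has 2 start windows, and the printed one was picked because it holds the element. It lies inside the RefSeq span of ASNS (97851677 to 97928441) and not at its 5′ end. The absence of these letters from a window says nothing about binding elsewhere.

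Against input the 9 genes did not move together. Since the kind of RNA in the FHY1-M3 libraries is not known, rose and fell here mean a higher or lower share of the library than in input, and enrichment of an RNA cannot be told apart from its expression in the cells. In the FHY1-M3 libraries 3 rose (SESN2, DDIT4 and PHGDH), ASNS alone fell, and ATF4, PSAT1, CHAC1, TRIB3 and DDIT3 did not pass the threshold. Among all 13411 genes tested, 11.4% were called higher and 8.60% lower, or 20% in either direction. At an unadjusted p under 0.05 stood 5 of the 9, against 31.9% of all genes. The median log2 fold change of the 9 was 0.62, with values from -1.75 to 1.62, and that of all genes was 0.04. The 3 higher calls and the lower one were made in every alternative run, including DESeq2, other scalings and each library left out. By level in each library, SESN2, DDIT4, PHGDH and TRIB3 had all 6 FHY1-M3 libraries above the inputs, ATF4, CHAC1 and DDIT3 overlapped, and PSAT1 and ASNS had all inputs above, ASNS by far the more.

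**Figure D1:**
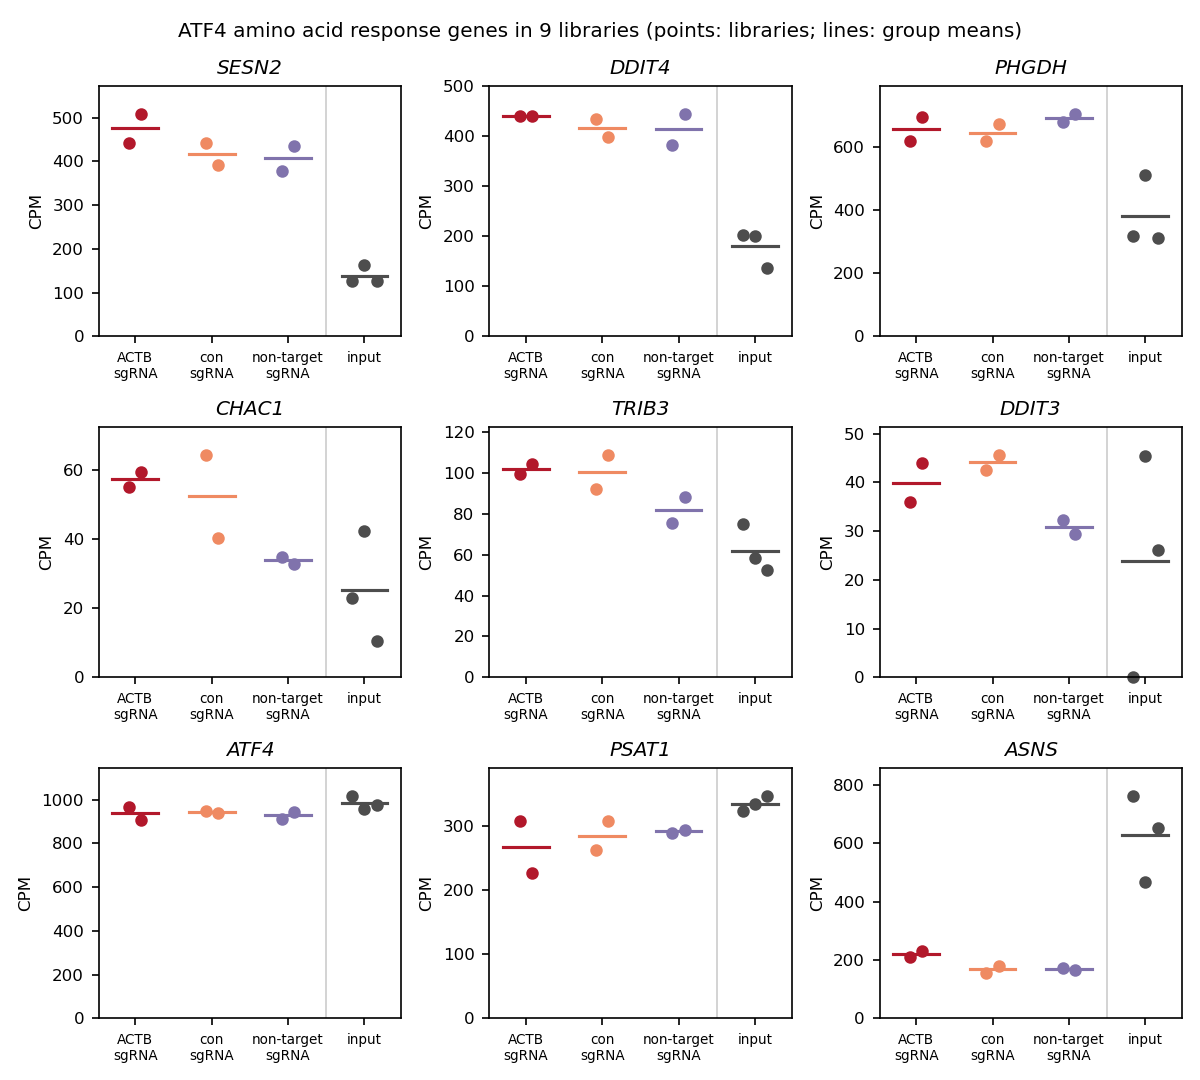
Level of each of the 9 genes in each library, in CPM on an axis from 0, with 1 point a library and a line at the group mean, for the ACTB, con and non-target sgRNA (n = 2 each) and input (n = 3). SESN2 lies at 378 to 509 CPM across the FHY1-M3 libraries and 125 to 163 CPM in the inputs, while ASNS lies at 157 to 231 CPM against 468 to 763 CPM.

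ATF4 itself (chromosome 22, 39520559 to 39522686, GRCh38.p14, as all positions here) was close to level across the study. It stood at 968 and 908 CPM under the ACTB guide, 949 and 941 CPM under con and 911 and 945 CPM under non-target, against 1018, 959 and 975 CPM in the inputs. The FHY1-M3 and input ranges overlap, and the spread within each is small (937 ± 23 CPM, n = 6, against 984 ± 30.3 CPM, n = 3, mean ± SD). On the log2 scale ATF4 differed by -0.07 (SE 0.08, 95% interval -0.23 to 0.09, adjusted p = 0.599). The interval leaves room for folds between 0.851 and 1.07. RefSeq lists 4 ATF4 pseudogenes, and how reads that also match them were counted is not known.

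The targets that restrain growth, SESN2 and DDIT4, had the 2 highest fold changes of the 9. SESN2 (chromosome 1, 28259518 to 28282491) encodes sestrin 2, a leucine sensor that holds back mTORC1 through GATOR2. It stood at 442 and 509 CPM under the ACTB guide, 442 and 393 CPM under con and 378 and 436 CPM under non-target, against 127, 163 and 125 CPM in the inputs. Every FHY1-M3 library was above every input by a wide gap, and the ACTB sgRNA library of replicate 2 was the highest. SESN2 rose by 1.62 on the log2 scale (SE 0.15, adjusted p = 5.58e-11, higher in 6 of 6 libraries), a fold of 3.08. At the FHY1-M3 level the inputs would have held 582 SESN2 counts, and they held 192. Of all genes tested, 6.02% had a higher fold change.

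DDIT4 (chromosome 10, 72273924 to 72276036) encodes REDD1, which restrains mTORC1 through TSC1 and TSC2 and also responds to hypoxia and glucocorticoids. Its level was 440 and 442 CPM under the ACTB guide, 435 and 399 CPM under con and 383 and 445 CPM under non-target, against 202, 202 and 136 CPM in the inputs. The groups do not overlap, and input replicate 3 was the lowest library. DDIT4 rose by 1.23 on the log2 scale (SE 0.14, adjusted p = 3.14e-08), a fold of 2.34, and 10.2% of all genes had a higher one. Against ATF4 in the same library, where scaling plays no part, DDIT4 had 0.420 to 0.486 counts for each ATF4 count in the FHY1-M3 libraries and 0.139 to 0.210 in the inputs. For SESN2 the same ratio was 0.415 to 0.560 in the FHY1-M3 libraries and 0.125 to 0.169 in the inputs.

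The amino acid synthesis genes split 3 ways. PHGDH (chromosome 1, 119711934 to 119744215) encodes phosphoglycerate dehydrogenase, which commits a glycolytic intermediate to serine synthesis. It stood at 618 and 694 CPM under the ACTB guide, 619 and 672 CPM under con and 680 and 705 CPM under non-target, against 318, 512 and 311 CPM in the inputs. All FHY1-M3 libraries were above all inputs, with input replicate 2 nearest to them. PHGDH rose by 0.78 on the log2 scale (SE 0.12, adjusted p = 1.32e-05), a fold of 1.72 with an interval of 1.44 to 2.05. Without input replicate 2 the log2 value was 1.07.

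PSAT1 (chromosome 9, 78297125 to 78330093) encodes phosphoserine aminotransferase, the enzyme that follows PHGDH in the same pathway. Its level was 308 and 226 CPM under the ACTB guide, 263 and 309 CPM under con and 290 and 295 CPM under non-target, against 324, 335 and 348 CPM in the inputs. The inputs lay above all FHY1-M3 libraries, con replicate 2 being the nearest to them and ACTB replicate 2 the farthest. The log2 fold change of -0.25 (SE 0.13, interval -0.52 to 0.02) did not pass (adjusted p = 0.187). RefSeq lists 4 PSAT1 pseudogenes, so reads may have been shared with copies.

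ASNS (chromosome 7, 97851677 to 97928441) encodes asparagine synthetase, a standard reporter of the amino acid response, and was the member called lower. It stood at 210 and 231 CPM under the ACTB guide, 157 and 181 CPM under con and 174 and 167 CPM under non-target, against 763, 468 and 653 CPM in the inputs. The lowest input held more than the highest FHY1-M3 library. ASNS fell by 1.75 on the log2 scale (SE 0.13, interval -2.01 to -1.49, adjusted p = 1.81e-13), to 0.297 of its input level, and 6.31% of all genes had a lower fold change. At the FHY1-M3 level the inputs would have held 251 ASNS counts, and they held 802. ASNS took 5.12% to 7.19% of the counts of the 9 genes in the FHY1-M3 libraries and 16.8% to 26.8% in the inputs. As a ratio within a library, SESN2 had 2.10 to 2.82 counts for each ASNS count in the FHY1-M3 libraries and 0.167 to 0.347 in the inputs, and for ATF4 the ratio was 3.93 to 6.05 against 1.33 to 2.05. RefSeq places the long noncoding gene CZ1P-ASNS over 76325 bases of ASNS and lists 5 ASNS pseudogenes. None of these has a row in the count table, so reads from them cannot be told apart from ASNS mRNA here.

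The stress effectors CHAC1, TRIB3 and DDIT3 were the members of lowest level, and their differences from input did not pass. TRIB3 (chromosome 20, 380760 to 397559), a pseudokinase that binds ATF4 and restrains it, stood at 99.5 and 104 CPM under the ACTB guide, 92.0 and 109 CPM under con and 75.8 and 88.2 CPM under non-target, against 75.2, 58.5 and 52.3 CPM in the inputs. The groups do not overlap, but the lowest FHY1-M3 library and the highest input differ by less than 1 CPM (75.8 against 75.2 CPM). TRIB3 differed by 0.62 on the log2 scale (SE 0.26, interval 0.10 to 1.14, adjusted p = 0.0854).

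CHAC1 (chromosome 15, 40953471 to 40956512) encodes an enzyme that degrades glutathione. It had 55.3 and 59.6 CPM under the ACTB guide, 64.5 and 40.4 CPM under con and 34.9 and 32.8 CPM under non-target, against 23.1, 42.3 and 10.5 CPM in the inputs. Input replicate 2 overlaps the FHY1-M3 range. Its log2 fold change was 0.80 (SE 0.40, interval -0.00 to 1.61, adjusted p = 0.157), and without input replicate 2 it was 1.49 and passed (adjusted p = 0.0394). The inputs held 8, 26 and 4 CHAC1 counts.

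DDIT3 (chromosome 12, 57516588 to 57520517) encodes CHOP, a transcription factor tied to death under lasting endoplasmic reticulum stress. It had 35.9 and 44.0 CPM under the ACTB guide, 42.6 and 45.7 CPM under con and 32.2 and 29.4 CPM under non-target, against 0, 45.5 and 26.1 CPM in the inputs. The inputs span nearly the whole FHY1-M3 range, and in input replicate 1 the count of 0 allows up to 17.3 CPM (3 read pairs, or 6 counts where both mates are counted). The log2 fold change was 0.54 (SE 0.47, interval -0.40 to 1.49, adjusted p = 0.450), and it was 1.48 without input replicate 2 and 0.04 without input replicate 1. RefSeq places 65 bases of MARS1 (MARS in the count table), a microRNA gene and a further coding gene over DDIT3, so reads there may be shared. In all, 6 of the 9 genes had ranges that did not overlap between FHY1-M3 and input libraries, against 23.4% of all genes tested.

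**Figure D2:**
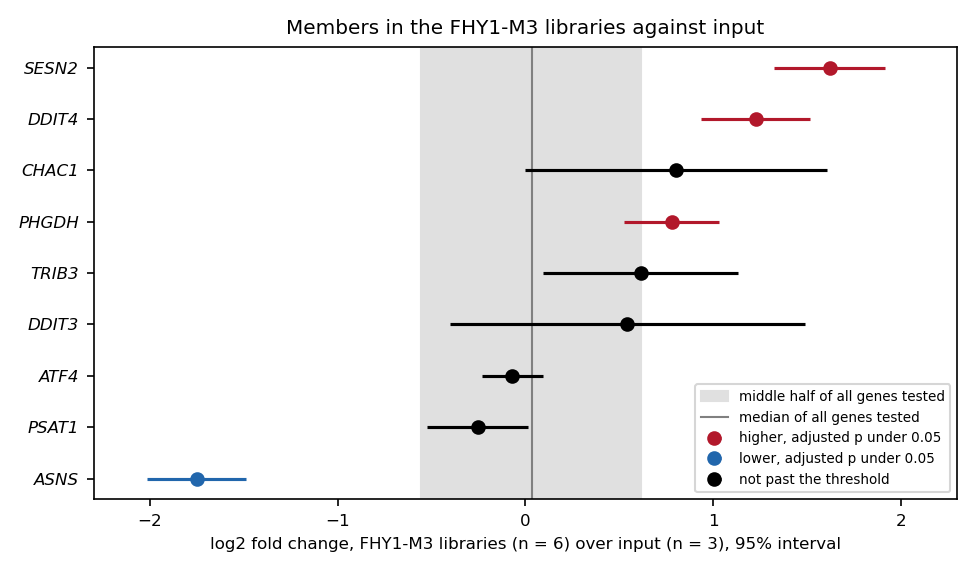
Log2 fold change of each gene, FHY1-M3 libraries (n = 6) over input (n = 3), with its 95% interval from the edgeR fit, over the median and the middle quartiles of all 13411 genes tested. SESN2 at 1.62, DDIT4 at 1.23 and PHGDH at 0.78 are past the threshold above 0, ASNS at -1.75 below it, and the other 5 genes are not past it.

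Set against the shared inputs, each guide had SESN2 highest, DDIT4 next and ASNS lowest of the 9. For SESN2 the log2 fold change was 1.76 (SE 0.17) with the ACTB sgRNA, 1.57 (SE 0.17) with the con sgRNA and 1.53 (SE 0.17) with the non-target sgRNA. For ASNS the values in the same order of guides were -1.50 (SE 0.18), -1.88 (SE 0.18) and -1.87 (SE 0.18). CHAC1 stood at 1.10 (SE 0.46) with the ACTB sgRNA, 0.97 (SE 0.46) with the con sgRNA and 0.34 (SE 0.47) with the non-target sgRNA. All 3 sets use the same inputs, so their likeness is not independent evidence.

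Between guides none of the 9 genes passed the edgeR test. For the ACTB sgRNA against the non-target sgRNA, 0 of 9 were called (0.250% of 12808 genes were, 0.0547% higher and 0.195% lower). At an unadjusted p under 0.05 stood 3, ASNS, CHAC1 and SESN2, against 7.82% of all genes, and 5 of 9 had ranges that did not overlap, against 35.1%. For the ACTB against the con sgRNA 0 of 9 were called (0.0312% of all genes, 0.0156% each way), with 1, ASNS, at an unadjusted p under 0.05 (3.86% of all) and 2 of 9 not overlapping (34.2% of all). For the con against the non-target sgRNA 0 of 9 were called (0.172% of all genes, 0.00781% higher and 0.164% lower), 0 were at an unadjusted p under 0.05 (5.25% of all) and 4 of 9 did not overlap (34.8% of all). DESeq2 called 0 of the 9 in each comparison as well.

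ATF4 was the most tightly bounded between guides. On the log2 scale it was 0.02 higher (SE 0.07, interval -0.12 to 0.16) for ACTB over non-target sgRNA. ACTB over con gave -0.01 (interval -0.15 to 0.14) and con over non-target gave 0.03 (interval -0.12 to 0.17). Fold differences outside 0.901 to 1.12 therefore lie beyond these intervals. For ACTB against non-target sgRNA the interval was -0.25 to 0.10 for PHGDH, -0.12 to 0.31 for DDIT4 and -0.40 to 0.16 for PSAT1.

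ASNS was the 1 of the 9 genes with both ACTB libraries above the 4 other sgRNA libraries, a pattern that 7.29% of the 12808 genes tested showed. Its 2 ACTB sgRNA libraries averaged 221 ± 15.1 CPM, those with the con sgRNA 169 ± 17.2 CPM and those with the non-target sgRNA 170 ± 4.81 CPM (SD, n = 2 each). The log2 difference was 0.39 (SE 0.16, interval 0.07 to 0.71) against the con sgRNA and 0.38 (SE 0.16, interval 0.06 to 0.70) against the non-target sgRNA, with adjusted p of 1 and 0.569. SESN2 averaged 475 ± 47.5 CPM under the ACTB guide and 407 ± 41.2 CPM under non-target, a log2 difference of 0.23 (SE 0.11, adjusted p = 0.620).

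CHAC1, TRIB3 and DDIT3 had their lowest sgRNA values in the non-target libraries. For these 3 of the 9 genes both non-target libraries lay below the 4 other sgRNA libraries, a pattern that 8.21% of the 12808 genes tested showed. CHAC1 averaged 57.4 ± 3.05 CPM under the ACTB guide, 52.4 ± 17 CPM under con and 33.9 ± 1.5 CPM under non-target. Its log2 difference was 0.76 (SE 0.33, interval 0.09 to 1.44, adjusted p = 0.580) for ACTB against non-target sgRNA and 0.63 (SE 0.33, interval -0.04 to 1.30, adjusted p = 0.932) for con against non-target sgRNA. DDIT3 differed by 0.38 (SE 0.36) and 0.52 (SE 0.36) in the same 2 comparisons, and TRIB3 by 0.32 (SE 0.23) and 0.30 (SE 0.23), each with an interval that spans 0. These comparisons share the 2 non-target libraries.

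**Figure D3:**
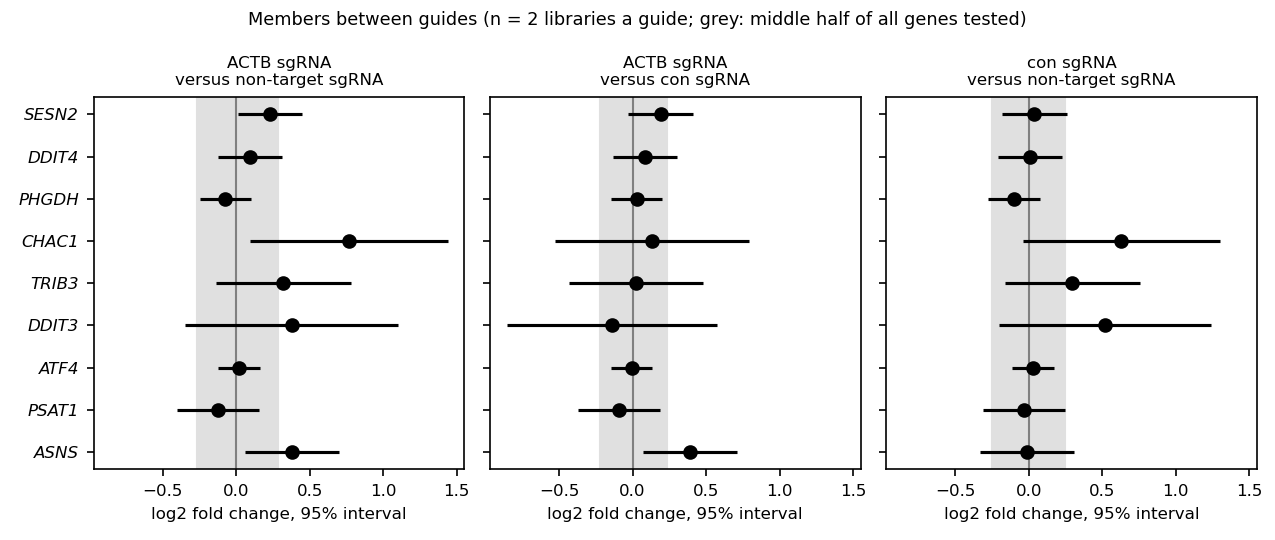
Log2 fold change of each of the 9 genes in the 3 comparisons between guides (n = 2 libraries a guide), with 95% intervals from the edgeR fit of the 6 sgRNA libraries, over the middle quartiles of all 12808 genes tested. ATF4 sits at 0.02, -0.01 and 0.03 with short intervals, and CHAC1 at 0.76, 0.13 and 0.63 with long ones.

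The genes around ATF4 were read from 9 lists of 107 genes in the count table. Of the 104 tested against input, 19 (18.3%) were higher and 13 (12.5%) lower in the FHY1-M3 libraries, against 11.4% and 8.60% of all genes, with a median log2 fold change of 0.07. In each list but hypoxia targets and the paralogues, genes moved in both directions. The counts of single lists below stand against these same shares of all genes.

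Upstream of ATF4, 15 genes were read, for eIF2, its kinases, its exchange factor eIF2B and its phosphatase cofactors, together with GCN1. Of these, 3 were higher, 3 lower and 9 not past the threshold, with a median of 0.36. PPP1R15A, an ATF4 target that directs the phosphatase that reverses eIF2 phosphorylation, stood at 234 ± 28.5 CPM across the FHY1-M3 libraries and 112 ± 42.7 CPM in the inputs (log2 1.02, SE 0.20, adjusted p = 0.000204). Its constitutive relative PPP1R15B went the other way, at 137 ± 19.4 against 230 ± 23.4 CPM (log2 -0.77, SE 0.16, adjusted p = 0.000747). EIF2S3, the gamma subunit of eIF2, fell by 1.18 on the log2 scale (SE 0.12), and EIF2AK1, the heme-regulated eIF2 kinase, fell by 0.91 (SE 0.19). EIF2S2, the beta subunit, was higher at 0.47 (SE 0.15, adjusted p = 0.0204). The alpha subunit gene EIF2S1 did not pass (-0.60, SE 0.33, adjusted p = 0.207). Neither EIF2AK4, which encodes the amino acid sensor GCN2 (0.36, SE 0.21, adjusted p = 0.240), nor EIF2AK3, which encodes PERK (-0.04, SE 0.42, adjusted p = 0.968), passed. GCN1, of the same list, was higher at 0.72 (SE 0.11, adjusted p = 1.25e-05). Its level was 513 to 586 CPM across the FHY1-M3 libraries and 318 to 335 CPM in the inputs.

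Among 9 partners and related factors, 2 were higher and 1 lower, with a median of -0.06, and without input replicate 2 the counts were 1 and 2. JUN, an AP-1 subunit, was at 1350 ± 66.8 CPM across the FHY1-M3 libraries and 806 ± 72 CPM in the inputs (log2 0.74, SE 0.08, adjusted p = 7.80e-09). CEBPG, a C/EBP partner of ATF4, was higher (0.74, SE 0.20), a call lost on leaving out input replicate 2 (adjusted p = 0.113). CEBPB, another C/EBP partner, fell by 0.83 on the log2 scale (SE 0.24, adjusted p = 0.0131). ATF3, a stress factor downstream of ATF4, stood at 350 ± 26.4 CPM across the FHY1-M3 libraries and 361 ± 95.5 CPM in the inputs (log2 -0.06, SE 0.13, adjusted p = 0.799).

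The 10 amino acid transporters split into 3 higher and 2 lower, with a median of -0.01. SLC3A2 and SLC7A5, whose products pair as the large neutral amino acid exchanger, were both higher, at 0.83 (SE 0.13) and 0.60 (SE 0.11). SLC7A11, the cystine importer that also pairs with SLC3A2, stood at 37.9 ± 10.4 CPM across the FHY1-M3 libraries and 90.7 ± 19.4 CPM in the inputs and fell by 1.26 on the log2 scale (SE 0.31, adjusted p = 0.00295). SLC38A2, a sodium-coupled neutral amino acid importer induced by amino acid shortage, fell by 1.05 (SE 0.15, adjusted p = 3.29e-06), with no overlap between its 118 to 180 CPM across the FHY1-M3 libraries and the 275 to 356 CPM of the inputs.

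In serine, glycine, folate-linked and proline synthesis 3 of 14 genes were higher and 1 lower, with a median of 0.19. Without input replicate 3, 1 was higher, and without input replicate 2, 2 were lower. GPT2, a mitochondrial alanine aminotransferase induced by ATF4, was at 195 ± 14.8 CPM across the FHY1-M3 libraries and 87.4 ± 4.57 CPM in the inputs (log2 1.16, SE 0.19, adjusted p = 1.84e-05). ALDH18A1, which starts proline synthesis, was higher at 0.67 (SE 0.19, adjusted p = 0.00883), a call lost on leaving out input replicate 3 (0.108). GOT1, an aspartate aminotransferase, was at 0.78 (SE 0.28, adjusted p = 0.0418). GOT1 lost that call without any of 8 libraries (input replicate 2 was the exception) and under 6 other settings. ALDH1L2, a mitochondrial folate enzyme, fell by 0.87 on the log2 scale (SE 0.20, adjusted p = 0.00159). PSPH, which completes serine synthesis after PHGDH and PSAT1, was at -0.18 (SE 0.36, adjusted p = 0.784), SHMT2 at 0.17 (SE 0.14) and MTHFD2 at -0.23 (SE 0.15), none past the threshold.

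Of 11 other often-cited ATF4 targets 3 were higher and 2 lower, with a median of 0.06. STC2, the secreted glycoprotein stanniocalcin, was at 300 ± 30.9 CPM across the FHY1-M3 libraries and 147 ± 56.8 CPM in the inputs (log2 1.03, SE 0.17, adjusted p = 3.09e-05). MAP1LC3B, an autophagosome protein gene, was at 1.14 (SE 0.27), and NARS, the asparaginyl-tRNA synthetase gene, at 0.67 (SE 0.19). ERO1A, an oxidase of the endoplasmic reticulum, fell by 0.90 on the log2 scale (SE 0.23). Without input replicate 1 NARS (adjusted p = 0.0673) and ERO1A (adjusted p = 0.144) lost their calls, and the lower genes of this list came to 1.

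Among relatives of the 9 genes, 6 of 7 were tested, with 0 higher and 1 lower (2 lower without input replicate 1). SESN3, a sestrin induced by FOXO factors, was at 63.6 ± 6.67 CPM across the FHY1-M3 libraries and 128 ± 74.7 CPM in the inputs (fell by 0.997 on the log2 scale, SE 0.26, adjusted p = 0.00575). Its input mean rests on replicate 3 at 214 CPM, and without that library the call was lost (log2 -0.43, adjusted p = 0.326). With a replicate block SESN3 was at -0.42 (adjusted p = 0.353). SESN1, a p53 target, was at 0.47 (SE 0.42, adjusted p = 0.476). TRIB2 was at 0 in the inputs and at 0 to 52 counts in the FHY1-M3 libraries, with 52 of the 82 in 1 library. Its mean of 3.73 CPM there lies under the 4.47 CPM that a count of 0 over the inputs allows, so no fold is given, and it did not pass (adjusted p = 0.254). The median of the 6 fitted values was 0.09, and that of the 5 without TRIB2 was -0.29.

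In the amino acid sensing pathway that SESN2 and DDIT4 restrain, 2 of 18 genes tested were higher and 1 lower, with a median of 0.07. Of all genes 11.4% were higher and 8.60% lower, so these counts are near the shares of all genes. In DESeq2 1 of the list was higher and 2 were lower. MTOR, the kinase itself, was at 272 ± 34.4 CPM across the FHY1-M3 libraries and 149 ± 21.6 CPM in the inputs (log2 0.88, SE 0.17, adjusted p = 0.000146). RPTOR, its scaffold partner, was higher by 0.72 (SE 0.22, adjusted p = 0.0160). The RPTOR call was lost without input replicate 2 (0.190) or 3 (0.0513), without con replicate 1 (0.0513), without ACTB replicate 2 (0.0538) and in DESeq2 (0.0536). SEH1L, a GATOR2 and nuclear pore subunit, fell by 0.94 on the log2 scale (SE 0.29, adjusted p = 0.0197). The SEH1L call was lost without input replicate 1 (0.154) or 2 (0.133) or non-target sgRNA replicate 1 (0.0705), all as adjusted p.

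A list of 13 ATF6 and XBP1 targets of the endoplasmic reticulum response had 2 higher and 2 lower genes and a median of -0.08. Whether any of them also follow ATF4 was not tested. The chaperone gene HSPA5, which encodes BiP, was at 551 ± 38.1 CPM across the FHY1-M3 libraries and 537 ± 118 CPM in the inputs (log2 0.02, SE 0.11, adjusted p = 0.918). CRELD2 was higher at 1.66 (SE 0.48, adjusted p = 0.0123), with 0, 16.3 and 26.1 CPM in the inputs, and HYOU1 at 0.65 (SE 0.16). HERPUD1, a protein of the degradation complex in that membrane, fell by 1.21 on the log2 scale (SE 0.23), and the chaperone gene HSP90B1 fell by 0.37 (SE 0.10). With library-size scaling 4 of these 13 genes were higher. Of 9 hypoxia targets tested, 1 was higher and 0 lower, against 11.4% and 8.60% of all genes. The median of this list was 0.26, and without input replicate 1 there was 1 lower gene. Of its genes 1 was called higher. It was KDM3A, a histone demethylase gene, at 167 ± 12 CPM across the FHY1-M3 libraries and 86.2 ± 23.6 CPM in the inputs (log2 0.96, SE 0.20, adjusted p = 0.000749). VEGFA, like DDIT4 a standard hypoxia target, was at 0.52 (SE 0.21, adjusted p = 0.0731). BNIP3 (-0.22), EGLN3 (-0.49), NDRG1 (-0.34) and PDK1 (-0.16) lay below 0 and did not pass. At an unadjusted p under 0.05, 2 of the 9 hypoxia targets were counted, against 31.9% of all genes tested. With library-size scaling 2 were called higher.

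**Figure D4:**
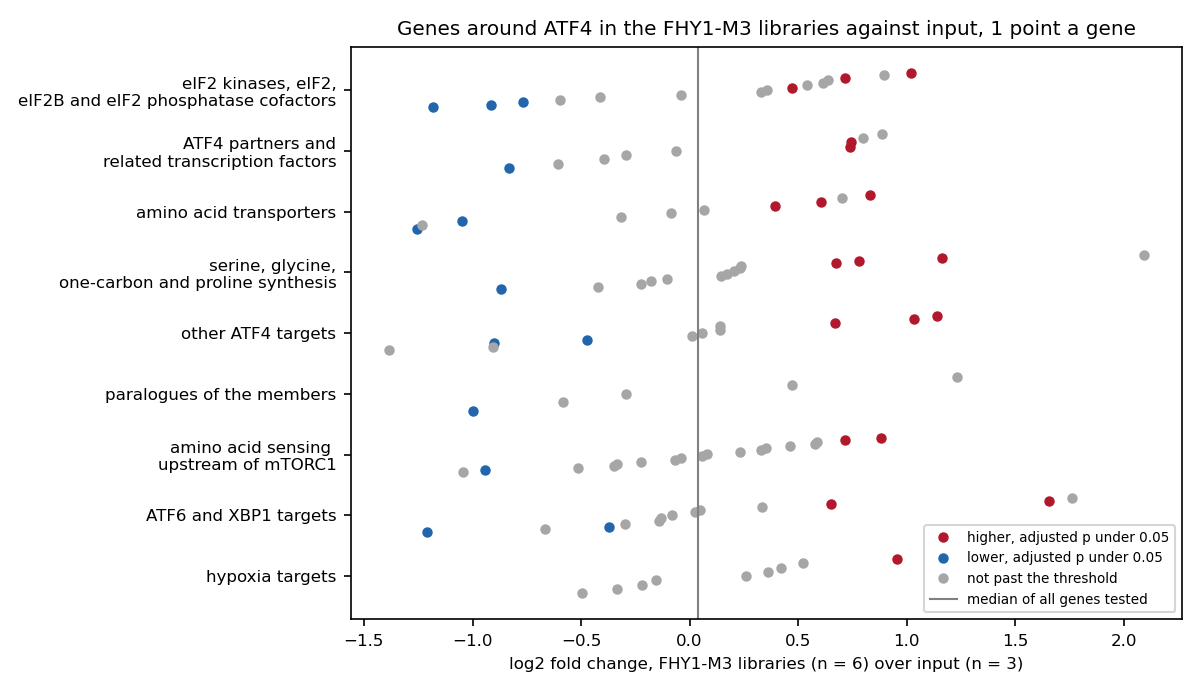
Log2 fold change, FHY1-M3 libraries (n = 6) over input (n = 3), of the tested genes of 9 lists around ATF4, with 1 point a gene, red and blue for genes past the threshold and grey for the rest. TRIB2, at 0 in every input, is left out. Red and blue points stand in the same list for 7 of the 9 lists, from SLC7A11 at -1.26 to CRELD2 at 1.66.

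Between guides 0 genes of the 9 lists passed the edgeR test in any of the 3 comparisons. The genes likest to ATF4 in profile over the 9 libraries, out of 8818 with a mean of at least 20 CPM, were ATP5F1B, an ATP synthase subunit gene, and the ribosomal protein genes RPL13 and RPL4. Their root-mean-square difference from the centred log2 profile of ATF4 was 0.047, 0.050 and 0.056. Those likest to ASNS were PRR11 (0.173), KDELR1 (0.178), which encodes a receptor that returns proteins to the endoplasmic reticulum, and MTX3 (0.193). Against input they stood at log2 -2.01 (PRR11, SE 0.27), -1.70 (KDELR1, SE 0.15) and -1.69 (MTX3, SE 0.26). These genes were picked for their likeness over the same 9 libraries, so folds near that of ASNS follow from the choice. Among the 9 genes themselves the closest profiles were ATF4 and PSAT1 (0.151) and DDIT4 and SESN2 (0.236), and the farthest were ASNS and DDIT3 (2.40), whose distance includes the count of 0 for DDIT3 in input replicate 1.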

How the data were processed

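The deposited values are whole-number counts per gene symbol in 9 libraries, deposited with no sign of normalization. Tools named, without roles, in the submitters' processing notes are STAR 2.7.10b, cutadapt 4.3 and deepTools, and the build is hg38. Per the labels' protocols a directional kit was used. Nothing read here names the counter, its strand setting or its annotation, so overlapping genes cannot be told apart. Among values of 1 to 20, 88.5% to 95% per library were even, so both mates of a pair appear to be counted, and floors cover counting error only.

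Counts were tested with edgeR 4.0.16 in R 4.3.3 by its quasi-likelihood test, which is two-sided, after filterByExpr by group and TMM scaling. The contrast with input was the mean of the 3 guides minus input in a fit of all 9 libraries, and guides were compared in a fit of the 6 sgRNA libraries. The standard error (SE) is the log2 fold change over the root of F. Alternatives were scaling, filters, DESeq2 1.42.0, halved counts, thinning, a replicate block, the libraries fitted and each library left out. Library size without mitochondrial mRNAs, and the recomputing of the lists, were added later. Replicates differed beyond sampling noise (chi-square per degree of freedom 1.80 to 5.12 on counts halved to read pairs), so none was merged. The test was also tried on simulated counts, but the outcome is not given here and no call rests on it.

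The 9 genes and the lists were chosen with earlier results of these data known. Up to 4 genes per list were named, taking the largest folds among called genes that averaged 5 CPM or more. Those named beside them that did not pass, and GCN1 and EIF2S2, which passed, were chosen after their values were seen. The calls on GCN1 and EIF2S2 were not followed singly through the alternatives. Sequences and positions are from RefSeq (GRCh38.p14).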

Additional observations from a re-analysis of the deposited data

How the results depend on the processing

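The calls on SESN2, DDIT4, PHGDH and ASNS against input, 3 higher and 1 lower, were made under all alternatives, with 3 to 4 higher and 1 to 1 lower when each library was left out. The 4th was CHAC1 without input replicate 2. The number of genes called against input was 2677, and 2043 to 2429 with a library left out.

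Genes called for ACTB against non-target sgRNA (32) came to 21 with a mean of at least 10 CPM, 74 in DESeq2, 16 in a fit of all 9 libraries and 18 to 35 with a library left out. For ACTB against con sgRNA (4) they came to 7 with no filter, 0 in the fit of all 9, where members called were also 0, and 0 to 3 with a library left out. For con against non-target sgRNA (22) they came to 12 with a mean of at least 10 CPM, 38 in DESeq2 and 10 to 27 with a library left out. The causes were not tested.

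Uncalled differences near 0 changed sign. ASNS for con against non-target sgRNA was at -0.01, and at 0.0011 with library size only and with mitochondrial mRNAs left out of it, and at -0.11 to 0.089 with a library left out. With a library left out, log2 values for ACTB against non-target sgRNA were -0.026 to 0.066 (ATF4), -0.16 to 0.010 (PHGDH), -0.36 to 0.085 (PSAT1) and -0.011 to 0.21 (DDIT4). For ACTB against con sgRNA they were -0.055 to 0.037 (ATF4), -0.093 to 0.14 (TRIB3), -0.33 to 0.11 (PSAT1), -0.060 to 0.11 (PHGDH) and -0.17 to 0.51 (CHAC1). For con against non-target sgRNA they were -0.093 to 0.12 (DDIT4), -0.061 to 0.14 (SESN2) and -0.15 to 0.079 (PSAT1).

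Same-numbered libraries did not deviate together (r between -0.01 and 0.02 over 12 pairs). With 2 libraries a guide these r values are not independent. They do not show whether same-numbered libraries shared a preparation. With a replicate block 2309 genes were called against input, the calls on the 9 genes stayed at 3 higher and 1 lower, and ALDH18A1 (adjusted p = 0.123), GOT1 (0.195) and SESN3 lost theirs. Input replicate 3 has no partner and drops out of that fit. ALDH18A1 (0.114) and GOT1 (0.108) also lost their calls after thinning to 462026 counts. Counts of the other lists moved by at most 1 call where they moved, save for ATF6 and XBP1 targets with library-size scaling and serine-related synthesis under the block, thinning or without input replicate 3. Over the inputs CHAC1, DDIT3 and TRIB3 had 38, 38 and 82 counts, and the part of this depth in their missing calls was not tested.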
